A study of Homo sapiens with 2 samples.

Results

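The molecular chaperone genes of a human breast cancer cell line were compared between 2 RNA sequencing libraries. Members were chosen by symbol: every listed gene starting with HSPA, HSPB, HSPD, HSPE, HSPH, HSP90, DNAJA, DNAJB, DNAJC or CCT and a digit, with TCP1, CRYAB, HSF1, HSF2, CHORDC1, STIP1, AHSA1, TRAP1 and the BAG genes added by name. The rule took 85 of the 13017 genes listed for both libraries. Of these, 82 had a mean of at least 1 FPKM (fragments per kilobase of transcript, scaled to the size of the library), among 10925 such genes in all. DNAJB5, HSPA4L and HSPA6 were under that mean. Values are given throughout as the knockdown library against the control library.

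Both libraries came from cells labelled 468 and grown in L15 medium with serum, a line labelled epithelioid and not named further. In the knockdown library the antisense RNA THAP7-AS1 had been targeted for 48 h with a Smart Silencer, a mixture of silencing oligonucleotides, and the control library carries the genotype label si-NC control. Since the labelled treatment is the same silencer in both samples, the groups were taken from the genotype label. With 1 library per group, no test of the groups was possible, and each difference describes these 2 libraries only. THAP7-AS1 is not analysed here, and the knockdown label was therefore not verified from the level of its target.

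As a check of the cell type, 6 epithelial markers summed to 1933 against 1815 FPKM, with EPCAM and the keratins KRT8, KRT18, KRT19 and KRT7 abundant and CDH1 lower, at 12.4 against 17.1. The fibroblast markers summed to 0.878 against 0.874 FPKM, CD68 was the only leukocyte marker listed, at 3.30 against 3.25, and no endothelial marker was listed. The depth was estimated from the lowest values at about 1.11e+07 against 1.09e+07 fragments. Mitochondrially encoded genes held 14.6% against 15.8% of all FPKM. In such bulk RNA, fewer cells of a type and less RNA per cell cannot be told apart.

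Chaperones hold unfolded proteins in a state from which they can fold. HSP70 proteins (the HSPA genes) clamp onto short exposed stretches of a client as ATP is hydrolysed. J-domain proteins (the DNAJ genes) bring clients and trigger hydrolysis, and exchange factors such as the HSP110 and BAG proteins swap the nucleotide so that the client is released. HSP90 finishes the folding of kinases and receptors, and the CCT ring encloses actin and tubulin. Under heat or proteotoxic stress, the factor HSF1 forms a trimer and binds heat shock elements, alternating GAA and TTC units. Misfolded proteins in the ER set off the unfolded protein response, which acts in part through an ER stress element. Tumour cells often carry high basal levels of these genes.

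Promoter stretches are shown for members whose values the results turn on, because they show the units that heat shock factors read. They come from RefSeq windows on GRCh38.p14 that run from 250 bases before an annotated start to 50 bases after it. Only bases before the start are printed, 5′ to 3′ on the strand of the gene, and some windows hold further matches outside the printed stretch. HSPD1 and HSP90AA1 have 2 annotated starts and HSP90AB1 and DNAJB1 have 3, and the stretch of 1 start is printed for each. Of 8 members with a run of 3 units, DNAJA1 is not printed because its run lies after the start, and HSPA6 because it was under the filter. Capitals mark each match to GAANNTTC or TTCNNGAA, 2 units at the spacing of a heat shock element. Both forms read the same on either strand. CHORDC1 (chr11:90223050-90223129, minus strand), DNAJB6 (chr7:157336853-157336905, plus strand) and HSPD1 (chr2:197500048-197500090, minus strand) hold runs of 3 or more units and were lower in the knockdown library.
CHORDC1: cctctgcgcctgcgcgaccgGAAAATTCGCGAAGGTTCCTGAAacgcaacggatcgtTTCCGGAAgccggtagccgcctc
DNAJB6: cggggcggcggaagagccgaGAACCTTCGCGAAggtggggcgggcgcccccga
HSPD1: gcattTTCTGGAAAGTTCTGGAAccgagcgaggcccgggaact

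HSP90AA1 (chr14:102087085-102087152, minus strand), HSP90AB1 (chr6:44247758-44247863, plus strand) and HSPA8 (chr11:123062159-123062211, minus strand) hold such runs too and lay near equal levels in both libraries.
HSP90AA1: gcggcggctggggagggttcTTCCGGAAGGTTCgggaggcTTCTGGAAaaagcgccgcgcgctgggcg
HSP90AB1: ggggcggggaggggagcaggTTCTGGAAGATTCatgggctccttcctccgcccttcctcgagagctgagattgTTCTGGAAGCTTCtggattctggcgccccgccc
HSPA8: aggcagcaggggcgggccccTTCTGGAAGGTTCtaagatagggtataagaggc

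DNAJB1 (chr19:14518417-14518494, minus strand, 1 of 3 annotated starts) and the near-identical pair HSPA1A (chr6:31815417-31815464, plus strand) and HSPA1B (chr6:31827613-31827660, plus strand) hold matches of 2 units. They are set side by side because DNAJB1 encodes the J-protein that works with stress-induced HSP70, and its ratio was further below 0 than theirs.
DNAJB1: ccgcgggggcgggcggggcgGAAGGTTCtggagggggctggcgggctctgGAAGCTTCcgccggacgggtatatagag
HSPA1A: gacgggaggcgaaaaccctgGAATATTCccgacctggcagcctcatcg
HSPA1B: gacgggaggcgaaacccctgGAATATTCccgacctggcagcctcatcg

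In HSPA5 (chr9:125241371-125241429, minus strand) and HSP90B1 (chr12:103930301-103930359, plus strand), the abundant chaperones of the ER, capitals mark an ER stress element instead, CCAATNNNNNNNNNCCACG or its other form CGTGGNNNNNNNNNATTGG.
HSPA5: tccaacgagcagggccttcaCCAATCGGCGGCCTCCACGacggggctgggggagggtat
HSP90B1: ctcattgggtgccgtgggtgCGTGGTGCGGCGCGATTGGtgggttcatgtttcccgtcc

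Across all members, differences were small. The ratio used throughout is log2((knockdown FPKM + 1)/(control FPKM + 1)), which understates the change of low genes. On this scale no member was at least 2-fold higher, where 0.604% of all 10925 genes were, and no member was at least 2-fold lower, where 0.668% of all genes were. At 1.5-fold, 2 members were higher, against 2.98% of all genes, and 1 was lower, against 2.46% of all genes. At 1.2-fold, 8 members (9.76%) were higher, against 14.6% of all genes, and 5 (6.10%) were lower, against 11.3% of all genes. With a pseudocount of 1, these shares of members did not exceed the background in either direction. With a pseudocount of 0.1, CRYAB and HSPE1-MOB4 passed 2-fold higher, 2.44% of members against 1.28% of all genes, so that at this setting the members' share was above the background. Once ratios were centred on the median of all genes, 7 members (8.54%) were at least 1.2-fold higher, against 13.4% of all genes. At that setting 7 (8.54%) were lower, against 12.4% of all genes.

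The median ratio of the 82 members was -0.03, with 47 below 0, while the median of all genes was 0.02. Of all 10925 genes, 5119 were below 0, which is the share to set beside each later count below 0. The middle of the members was tightly packed: their MAD-based SD was 0.12, where that of all genes was 0.21. This SD is scaled up from the median absolute deviation, so single far genes do not set it. Members are more abundant than most genes, with a median of 13.0 FPKM in the control library against 6.74, and single genes vary less at higher levels. Between genes with means of 1 to 2 FPKM the MAD-based SD was 0.25, and from 2 to 5 FPKM it was 0.23. From 5 to 20, from 20 to 100 and from 100 FPKM upward it was 0.21, 0.18 and 0.14. The part of level in the tighter packing of the members was not tested. Among the 25 members with a mean from 20 to 100 FPKM, 17 were below 0. Among all 1811 genes of that level, 811 were below 0. From 100 FPKM upward it was 8 of 12 members and 106 of 243 genes. At lower levels the members were closer to an even split, with 12 of 22 below 0 from 5 to 20 FPKM and 10 of 23 from 1 to 5 FPKM.

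**Figure D1:**
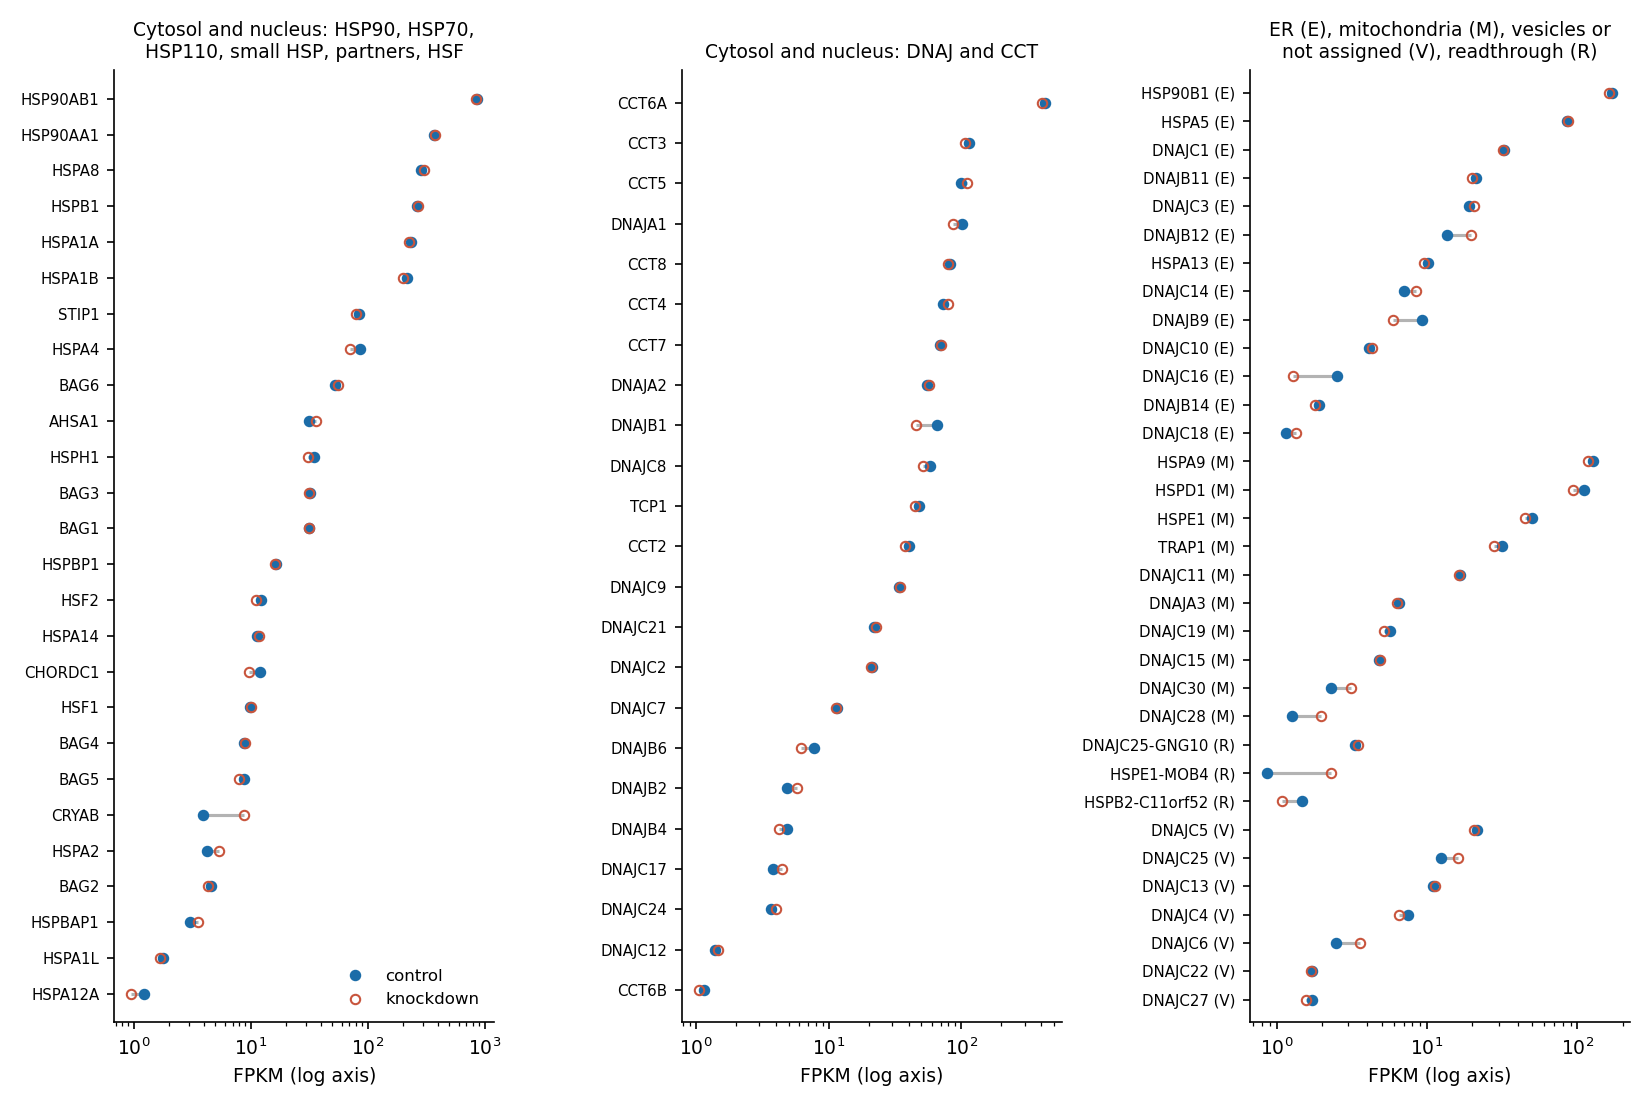
FPKM (log axis) of the 82 measured members in the control library (filled blue) and the knockdown library (open red), 1 library each, ordered by mean level within the panels and, on the right, within compartments. Most pairs of points touch, and HSPE1-MOB4, CRYAB and DNAJC16 are the widest apart.

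The 2 heat shock factors measured were close to equal. HSF1, the main activator of the heat shock response, was at 10.0 FPKM against 9.97 in the control. HSF2, its partner in development and stress, was at 11.1 and 12.2 FPKM, a ratio of -0.13. mRNA levels do not show whether HSF1 was active, since HSF1 is mostly controlled after translation.

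The cytosolic HSP90 genes were abundant and close to equal in both libraries. HSP90AB1, the constitutive form and the most abundant member, was at 852 FPKM against 861 in the control, a ratio of -0.02 with an estimated counting error of 0.01. HSP90AA1, the more inducible form, was at 376 and 368 FPKM, a ratio of 0.03. The constitutive form therefore exceeded the inducible form 2.26-fold in the knockdown library and 2.34-fold in the control library. The forms of other compartments, HSP90B1 of the ER and TRAP1 of mitochondria, were at 163 against 171 and 28.1 against 31.6 FPKM.

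The partners of HSP90 went different ways. STIP1, which hands clients from HSP70 to HSP90, was at 78.9 FPKM against 84.2, a ratio of -0.09. AHSA1, which speeds up ATP hydrolysis by HSP90, was at 35.9 against 31.8 FPKM, a ratio of 0.17. CHORDC1, a co-chaperone known as a heat-inducible gene, was at 9.62 against 12.0 FPKM, a ratio of -0.29 with an estimated counting error of 0.12. It was the only 1 of the 3 HSP90 partners in the rule to pass 1.2-fold, and 11.3% of all genes were at least that much lower.

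Among the cytosolic HSP70 genes, the constitutive HSPA8 was at 306 FPKM against 287 in the control. The inducible copies HSPA1A, at 225 against 237 FPKM, and HSPA1B, at 200.2 against 215.8, had ratios of -0.07 and -0.11. Their transcripts are so alike that reads are divided between them by estimate, and the split is uncertain. HSPA8 exceeded HSPA1A alone 1.36-fold in the knockdown library and 1.21-fold in the control library. The sum of HSPA1A and HSPA1B was above HSPA8 in both libraries. Each inducible copy was thus abundant but below the constitutive gene, while their sum was above it. HSPA6, a strictly heat-induced HSP70 gene, was at 0.038 and 0.019 FPKM, near the estimated level of a single fragment.

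The remaining cytosolic HSP70 genes were low. HSPA2, best known from testis, was at 5.36 against 4.26 FPKM, a ratio of 0.27. HSPA14, which sits at the ribosome, was at 11.8 against 11.3 FPKM, and shares exons with another listed gene. HSPA1L was at 1.67 against 1.798 FPKM and HSPA12A, a distant relative, at 0.957 against 1.22.

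The HSP110 genes, whose proteins exchange the nucleotide of HSP70 and help to dissolve aggregates, were lower in the knockdown library. HSPA4 was at 71.0 FPKM against 85.3, a ratio of -0.26 with an estimated counting error of 0.04. HSPH1 was at 31.2 against 34.8 FPKM, a ratio of -0.16, and HSPA4L, under the filter, was at 0.676 against 0.954. The MAD-based SD of genes from 20 to 100 FPKM was 0.18, so HSPA4 lay beyond it and HSPH1 within it.

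The 6 BAG genes and HSPBP1, which include other exchange factors, hardly differed, with ratios between -0.12 and 0.09. BAG3, an HSF1 target that joins HSP70 to autophagy, was at 31.4 FPKM against 32.3 in the control. BAG1 was at 31.5 FPKM in both, and BAG6, which guards tail-anchored and misfolded proteins, was the most abundant at 55.8 against 52.4. BAG5 was at 7.94 against 8.73 FPKM, BAG4 at 8.89 against 8.82, BAG2 at 4.32 against 4.57 and HSPBP1 at 16.1 against 16.5. HSPBAP1, which only shares the start of the symbol, was at 3.52 against 3.02.

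The small heat shock genes parted. CRYAB, which encodes alphaB-crystallin, a chaperone that holds unfolded proteins without using ATP, was at 8.72 FPKM against 3.89 in the control. Its ratio of 0.99, a fold of 1.98, was just under the 2-fold rule, and 99.4% of all genes had a lower ratio. The ratio was 0.62 with a pseudocount of 5. Its estimated counting error was 0.24, from about 83.9 and 36.9 fragments. HSPB1, which encodes HSP27 and assembles with alphaB-crystallin, was at 270 against 265 FPKM, a ratio of 0.02. CRYAB overlaps the readthrough gene HSPB2-C11orf52 on the opposite strand, which was at 1.09 against 1.484 FPKM. Strandedness is not given in the sources used here, so reads of these overlapping genes cannot be told apart.

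**Figure D2:**
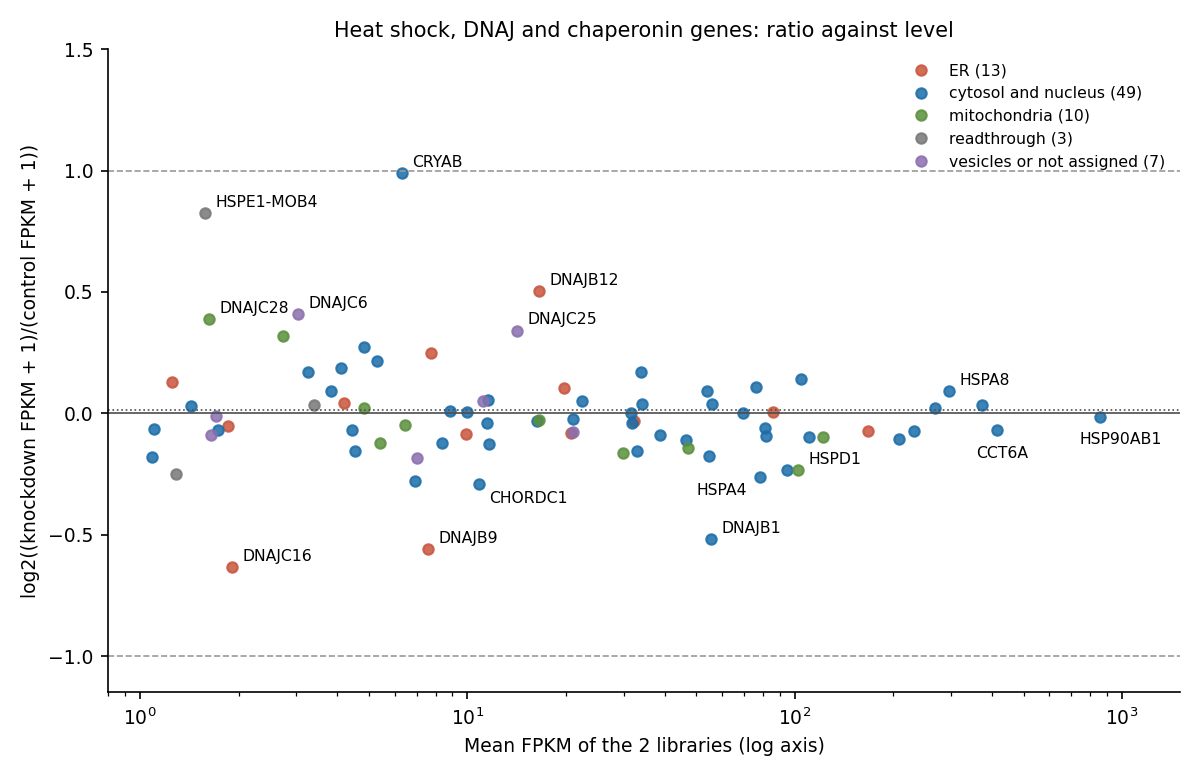
Ratio of each of the 82 members, log2((knockdown FPKM + 1)/(control FPKM + 1)), against its mean FPKM (log axis), coloured by compartment. Dashed lines mark 2-fold, the solid line equality and the dotted line the median of all genes, 0.02. No point passes 2-fold, and at 100 FPKM and above all 12 points lie between -0.23 and 0.14.

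J-domain genes made up 38 of the members, 37 of them above the filter, and 5 of these 37 (13.5%) were at least 1.2-fold higher and 4 (10.8%) at least 1.2-fold lower. Those shares were near the 14.6% and 11.3% of all genes. Their median was -0.01. By class, the medians were -0.05 for 3 DNAJA genes, -0.12 for 8 DNAJB genes and 0.04 for 26 DNAJC genes. In the DNAJB class 6 of 8 were below 0, and in the DNAJC class 11 of 26. The median of the DNAJC class went to -0.03 when only genes of at least 5 FPKM were kept.

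In the cytosol, DNAJB1 stood furthest from equality among the J genes. It was at 45.4 FPKM against 65.5 in the control, a ratio of -0.52, 1.43-fold lower, with an estimated counting error of 0.11. Only 3.19% of all genes had a lower ratio. Its exons overlap TECR on the opposite strand. DNAJA1, the most abundant J gene, was at 86.6 against 102 FPKM, a ratio of -0.23, while its close relative DNAJA2 was at 56.7 against 55.1. DNAJB6, a suppressor of polyglutamine aggregation, was at 6.16 against 7.69 FPKM, a ratio of -0.28. DNAJB4 was at 4.23 against 4.82 and DNAJB2, known from neurons, at 5.75 against 4.81, a ratio of 0.22. DNAJB5, under the filter, was at 0.523 against 0.326.

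J proteins of the ribosome, spliceosome and nucleus were closer to equality than DNAJB1. DNAJC2, which acts at the ribosome, was at 20.8 against 21.2 FPKM, and DNAJC21, needed for ribosome assembly, at 22.7 against 21.9. DNAJC8, a splicing factor, was at 51.2 against 58.0 FPKM, a ratio of -0.18, and DNAJC17, also linked to splicing, at 4.43 against 3.77, a ratio of 0.19. DNAJC9, a histone chaperone, was at 34.7 against 33.8 FPKM. DNAJC7 was at 11.3 against 11.6, DNAJC24, of the diphthamide pathway, at 3.99 against 3.68, and DNAJC12 at 1.45 against 1.40.

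The chaperonin ring CCT is built from 8 different subunits, TCP1 and CCT2 to CCT8. Their ratios lay between -0.11 and 0.14, with 5 of 8 below 0, and none reached 1.2-fold. TCP1 was at 44.7 FPKM against 48.3, CCT2 at 37.5 against 40.004 and CCT3 at 107 against 114. CCT8 was at 79.5 against 82.8 and CCT7 at 69.7 against 69.6. The 2 subunits highest in the knockdown library relative to the control were CCT5, at 110 against 99.4 FPKM, and CCT4, at 79.3 against 73.4. CCT6B, a testis form of the sixth subunit, was at 1.06 against 1.15.

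The ring subunits differed far more in level than in ratio. CCT6A was at 406 FPKM against 426 in the control, 3.80-fold and 3.73-fold above CCT3 and 10.8-fold and 10.6-fold above CCT2. FPKM is per length, and the other 7 subunits lay between 37.5 and 114. The genes on either side of CCT6A on chromosome 7, by gene order in RefSeq (GRCh38.p14), include several abundant ones, with lower genes between. In the control library SEC61G was at 494 FPKM, EGFR at 336, LANCL2 at 222, VOPP1 at 153 and CHCHD2 at 574. The genes directly beside CCT6A were lower, PSPH at 40.7 and SUMF2 at 68.5 FPKM. Between VOPP1 and PSPH, ZNF713 was at 14.9, MRPS17 at 49.9 and NIPSNAP2 at 46.0, and PHKG1, between SUMF2 and CHCHD2, was at 1.18. Beyond CHCHD2 the listed genes NUPR2, ZNF736 and ZNF138 were at 7.78, 0.995 and 3.76. Copy number was not measured, and its part in the level of CCT6A was not tested.

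**Figure D3:**
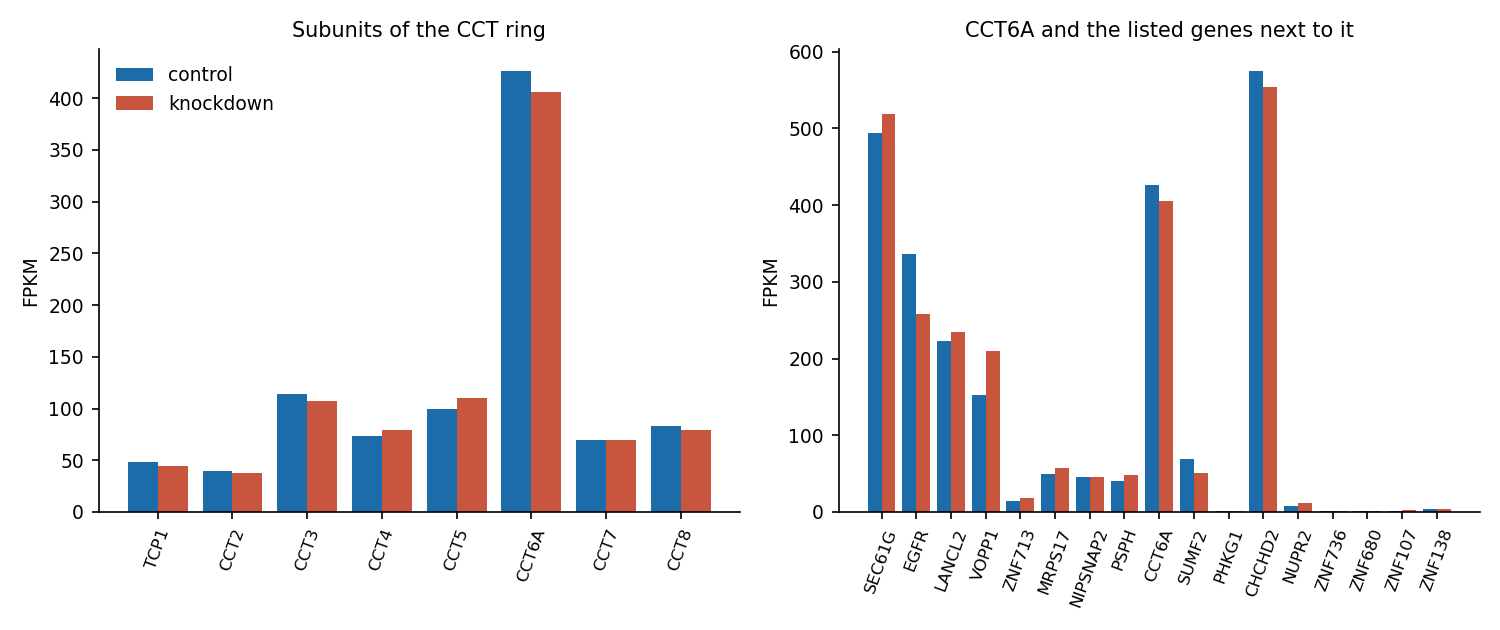
FPKM of the 8 CCT ring subunits (left) and of CCT6A with the 8 listed genes on each side in RefSeq gene order (right), in the control library (blue) and the knockdown library (red), 1 library each. CCT6A exceeds every other subunit in both libraries. SEC61G, EGFR, LANCL2, VOPP1 and CHCHD2 are above 150 FPKM, with lower genes between them and CCT6A.

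Of 13 members assigned to the ER, 7 were below 0, and their median was -0.03. The abundant folding machines hardly differed. HSPA5, the HSP70 of the ER and a classical mark of the unfolded protein response, was at 86.0 FPKM against 85.7 in the control, a ratio of 0.01. HSP90B1 had a ratio of -0.07. HSPA13 was at 9.54 against 10.2 FPKM, a ratio of -0.09. Of their J-protein partners, DNAJB11 was at 20.1 against 21.3 FPKM, DNAJC3, which also inhibits the kinase PERK, at 20.5 against 19.0, DNAJC10, a disulfide reductase, at 4.29 against 4.13, and DNAJC1 at 31.8 against 32.5.

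DNAJB9 differed from that core. It encodes a J protein that restrains the stress sensor IRE1, and it was at 5.93 FPKM against 9.21, a ratio of -0.56, 1.47-fold lower, with an estimated counting error of 0.12. DNAJB9 is a known target of XBP1. The mRNA of XBP1 was higher in the knockdown library, at 65.5 against 46.3 FPKM. The activity of XBP1 was not measured, and its part in the level of DNAJB9 was not tested. The other stress genes DDIT3 and ATF3 were also higher, at 8.78 against 1.97 and 3.16 against 1.63. DNAJB9 shares exons on the opposite strand with THAP5 and PNPLA8.

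The membrane J proteins of the ER spread widest. DNAJB12, which directs misfolded membrane proteins to degradation, was at 19.6 FPKM against 13.5 in the control, a ratio of 0.50 with an estimated counting error of 0.08. DNAJB14, its close relative, was at 1.81 against 1.91, a ratio of -0.05. DNAJC16 was at 1.28 against 2.53 FPKM, and its ratio of -0.63, 1.55-fold lower, was the lowest of all members, though it was -0.93 with a pseudocount of 0.1 and -0.26 with 5. DNAJC14 was at 8.48 against 6.99, with exons shared with another listed gene, and DNAJC18 at 1.35 against 1.15.

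In mitochondria 7 of 10 members were below 0, where 5119 of all 10925 genes were, and the median of the 10 was -0.07. The 4 core chaperones were all lower in the knockdown library. HSPD1 (HSP60) was at 94.0 FPKM against 111, a ratio of -0.23 with an estimated counting error of 0.07, and HSPE1 (HSP10), which caps it, was at 45.0 against 49.7, a ratio of -0.14. These genes lie head to head, and their annotated exons overlap on opposite strands. HSPA9, the import motor and matrix HSP70, was at 118 against 126 FPKM, a ratio of -0.10, and TRAP1 had a ratio of -0.16. The MAD-based SD of genes of similar level was 0.14 for HSPD1 and HSPA9 and 0.18 for HSPE1 and TRAP1. Only HSPD1 lay beyond it. HSPD1 exceeded HSPE1 2.09-fold in the knockdown library and 2.23-fold in the control library. The mitochondrially encoded share of FPKM was lower in the same library, as given above, and its part in these values was not tested.

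The mitochondrial J genes were split, with 3 of 6 above 0. DNAJA3 was at 6.32 against 6.56 FPKM, and DNAJC11, a partner of the cristae complex, at 16.4 against 16.7. DNAJC19 and DNAJC15, alternative partners of the import motor, were at 5.15 against 5.69 and 4.86 against 4.77. DNAJC28 was at 1.97 against 1.27 FPKM and DNAJC30, which helps to repair complex I, at 3.13 against 2.32, with ratios of 0.39 and 0.32 and estimated counting errors of 0.24 and 0.17.

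Among 7 J genes of vesicles or without a firm compartment, DNAJC6 (auxilin), which strips clathrin coats, was at 3.61 FPKM against 2.47, a ratio of 0.41 with an estimated counting error of 0.11. DNAJC25 was at 16.0 against 12.4 FPKM, a ratio of 0.34, and shares exons with DNAJC25-GNG10, at 3.45 against 3.34. DNAJC5, of synaptic and secretory vesicles, was at 20.5 against 21.7 and DNAJC13, of endosomes, at 11.4 against 10.9. DNAJC4 was at 6.50 against 7.52, DNAJC27 at 1.56 against 1.72 and DNAJC22 at 1.70 against 1.72.

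The readthrough gene HSPE1-MOB4 was at 2.30 FPKM against 0.863 in the control, a ratio of 0.83 from about 22.7 and 8.39 fragments. That ratio lay between 0.32 and 1.32 with other pseudocounts. It shares exons with HSPE1 and MOB4, both lower in the knockdown library, MOB4 at 7.495 against 9.48, so its value depends on how reads were divided.

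RefSeq windows were found for 76 of the 85 members, all but BAG4, CCT6A, CRYAB, DNAJC1, DNAJC22, DNAJC24, HSF1, HSPA14 and HSPB2-C11orf52. A run of 3 units, GAANNTTCNNGAA or TTCNNGAANNTTC, was in a window of 8 of them (10.5%), against 0.608% of all 27305 genes with a window. The single pair of units, which every such run also holds, was in 24 members (31.6%) and in 16.2% of all genes. The runs lay between 245 bases before an annotated start in HSPD1 and 15 bases after one in DNAJA1. CHORDC1 holds overlapping runs from 60 to 38 bases before its start, and the HSP90AB1 stretch printed above holds 2 separate runs.

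Among the members with a run of 3 units, 7 had a mean of at least 1 FPKM, and 5 of the 7 were below 0. Their median was -0.23. CHORDC1, DNAJB6, DNAJA1 and HSPD1 lay between -0.29 and -0.23, while HSP90AB1, HSP90AA1 and HSPA8 lay at -0.02, 0.03 and 0.09. The 15 members with 1 or more pairs of units but no run of 3 had a median of -0.07, with DNAJB1 lowest at -0.52 and DNAJC6 highest at 0.41. The 49 members with a window and neither motif nor an ER stress element had a median of -0.03. They include BAG3, called an HSF1 target above, so the lack of an exact match does not mark a gene as free of HSF1 control. Outside the members, the 28 measured genes with a run of 3 units had a median of 0.04, with 13 below 0. The ER stress element was in 2 members, HSPA5 and HSP90B1, and in 0.0916% of all genes. The 13 other measured genes with it had a median of 0.06. A match is a string of letters, and binding of a factor was not measured.

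**Figure D4:**
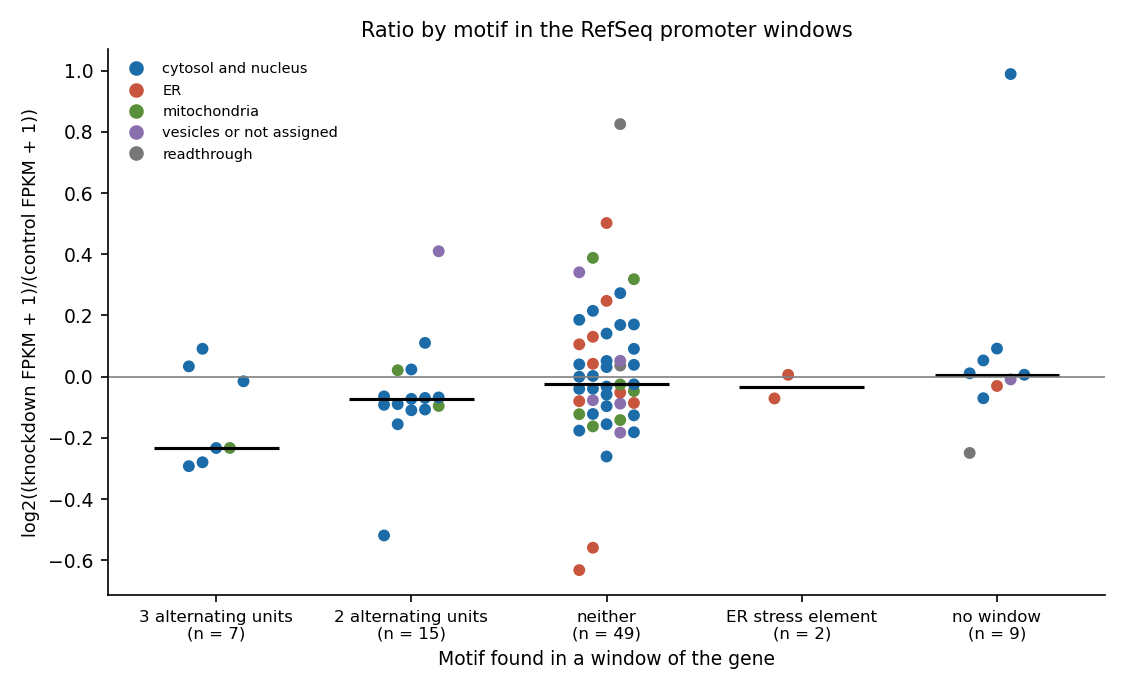
Ratio of the 82 members, log2((knockdown FPKM + 1)/(control FPKM + 1)), by the motif found in their RefSeq promoter windows, with 1 point per gene coloured by compartment and a bar at the median. Of the 7 genes with 3 alternating units, 4 sit between -0.29 and -0.23 and 3 near 0. The DNAJB1 point at -0.52 is the lowest with 2 units.

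Genes that work with these chaperones but lie outside the symbol rule were taken as lists, to be read against the 14.6% of all genes at least 1.2-fold higher and the 11.3% lower. Of 21 measured HSP90 co-chaperones, 4 (19.0%) were at least 1.2-fold higher and 1 (4.76%) lower, and their median was 0.04. NUDCD3 was at 10.98 FPKM against 7.34, UNC45A, a myosin chaperone, at 12.1 against 8.41 and FKBPL at 9.29 against 6.44. PTGES3, the p23 protein that stabilises the closed form of HSP90, was at 62.8 against 82.1, a ratio of -0.38.

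Of 13 genes of prefoldin, which delivers actin and tubulin to the CCT ring, and its relatives and CCT partners, 1 (7.69%) was at least 1.2-fold higher and 1 lower, and the median was 0.06. Subunits of prefoldin itself lay at both ends. PFDN1 was at 29.4 FPKM against 19.8, a ratio of 0.54, and VBP1 at 28.0 against 45.0, a ratio of -0.66 with an estimated counting error of 0.08. PFDN2, the most abundant, was at 186 against 183.

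Of 18 HSF1 targets outside the rule, 3 (16.7%) were at least 1.2-fold higher and 2 (11.1%) lower, near the shares of all genes, with a median of -0.08. Under quantile normalization 2 were higher and 3 lower, where 13.2% of all genes were higher and 12.6% lower. SERPINH1, the collagen chaperone HSP47, was at 8.003 FPKM against 12.1 and HMOX1 at 6.56 against 8.77. CHAC1 was at 2.34 against 0.780 and RGS2 at 4.11 against 2.89. Of 14 measured HSF regulators, only XPO1, the nuclear export receptor, passed 1.2-fold, at 9.45 against 13.5 FPKM, and their median was -0.09.

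Of 14 mitochondrial folding partners and proteases, 2 (14.3%) were at least 1.2-fold higher and 2 lower, near the shares of all genes, with a median of -0.04. GRPEL2, an exchange factor of HSPA9, was at 2.65 FPKM against 8.11, a ratio of -1.32, while its relative GRPEL1 was at 10.8 against 9.97. The matrix protease gene LONP1 was at 23.1 against 16.5 FPKM, HSCB, a J protein of iron-sulfur assembly, at 5.97 against 4.16, and PAM16 at 2.85 against 3.76. Of 14 ER folding partners, P4HB was at 67.2 against 49.6 FPKM, PDIA4 at 87.9 against 107 and HYOU1, the HSP110 of the ER, at 34.1 against 41.6. Those were the only 3 of that list past 1.2-fold, and the list median was 0.01, which came to -0.01 once all ratios were centred. Of 13 ubiquitin and degradation partners only CAMLG passed 1.2-fold, at 17.2 against 13.7, and the list median of 0.01 came to -0.0028 after that centring. Of the crystallin list 2 of 5 genes were measured, CRYZ at 3.77 against 4.67 FPKM and CRYL1 at 4.58 against 4.05.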

How the data were processed

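The data are the deposited gene tables of 2 libraries, 1 per group, with FPKM per gene as the authors deposited them. Reads were processed with cutadapt, HISAT2 2.0.5 and StringTie on hg19, per the submitters' processing notes, which give no order. The annotation, the other versions and whether the libraries were stranded are details not given in the sources used here. StringTie divides reads of overlapping or near-identical genes by estimate. GENCODE 29 names at least 91 pseudogenes after members, 26 of them after HSPE1, 17 after HSPA8 and 17 after HSPD1, which can draw reads from the parent gene. Only names made of the full symbol, P and a number were counted, so members without such a name may have pseudogenes too.

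Symbols were matched by gene identifier for 12903 of 13017 genes. Ratios are log2((knockdown FPKM + 1)/(control FPKM + 1)) where the mean reached 1 FPKM, and folds of 2, 1.5 and 1.2 stood in for a test. Compartments were assigned from general knowledge. Members and lists were chosen with earlier results of these data known. The named genes are all members and, of each partner list, up to 4 past 1.2-fold with the largest ratios. DDIT3, ATF3 and XBP1 are named beside the ER result. MOB4, GRPEL1, PFDN2, CRYZ, CRYL1 and the neighbours of CCT6A were added after their values were seen.

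Exon overlap and transcript length came from GENCODE 29 by identifier, which has 9 members sharing exons with a listed gene on the same strand and 28 on the opposite strand. Depth was estimated in genes with 1 annotated transcript whose value times length fell in a chosen window near the lowest values. The median in that window was 90.0 over 18 genes in the knockdown library and 91.6 over 12 in the control library. The window was set with earlier values known and bounds the estimate, so the depth is rough. Estimated fragments and counting errors follow from that depth and the median coding transcript length, and rest on both choices. The errors cover counting only, not the spread between cultures. Other pseudocounts, filters, scalings and member rules were tried. Python 3.11.15, numpy 2.4.6, pandas 2.3.3 and matplotlib 3.10.9 were used, and the computation was tested on simulated libraries.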

Additional observations from a re-analysis of the deposited data

How the results depend on the processing

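The count of members at least 2-fold higher, 0, became 2 with a pseudocount of 0.1 and 2 after rescaling to TPM. Those 2 are 2.44% of members, above the 1.28% and 1.14% of all genes at these settings. At 1.5-fold, the 2 higher members became 1 with a pseudocount of 5 (1.22% of members, 0.805% of all genes). They became 1 with a 5 FPKM filter too (1.69%, against 2.55%). The same held without members sharing exons (1.37%) and under a stricter prefix rule (1.30%), each against 2.98% of all genes. The 1 lower member became 2 with a pseudocount of 0.1 (2.44% of members, against 3.71% of all genes). It became 2 after rescaling to TPM too (2.44%, against 3.50%). The count was 0 with a pseudocount of 5 (against 0.879% of all genes) or a 5 FPKM filter (against 2.44%). At 1.2-fold, the 8 higher members became 4 with a pseudocount of 5 (4.88%, against 6.52% of all genes) and 3 of 59 with a 5 FPKM filter (5.08%, against 12.7%). The 5 lower members became 8 when the pseudocount was 0.1 (9.76%, against 14.4%) and 2 when it was 5 (2.44%, against 5.44%). A larger pseudocount or a stricter filter takes fewer genes by construction. Rescaling to TPM enlarges all values before the pseudocount is added, so it acts as a smaller pseudocount and is no separate check. The cause of the other differences was not tested. Medians stayed below 0 under every alternative run, between -0.05 and -0.02 for all members, -0.05 and -0.02 for the cytosol and nucleus, -0.05 and -0.02 for the ER, and -0.12 and -0.05 for mitochondria. Over 6 other pseudocounts and scalings, 486 of 492 member ratios shifted less than genes of similar level spread. Centring takes only 0.02 from every ratio, and a changed pseudocount hardly moves abundant genes. This count was therefore largely fixed beforehand and does not measure robustness. The 6 ratios that shifted more belong to CRYAB, DNAJC16 and HSPE1-MOB4. The sign differed under some of these settings for 8 members, of which HSP90AA1, at 0.03, lay furthest from 0. No paired analysis was possible because each group has 1 library, and no alternative measures the spread between cultures. Depth limits low members most, with estimated counting errors up to 0.35 for DNAJC18.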
